A study of Mus musculus with 8 samples.

Results

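The genes described here are the 4 fibroblast growth factor (FGF) receptors Fgfr1, Fgfr2, Fgfr3 and Fgfr4, the co-receptor Klb, and 5 adaptors that act directly at the receptor, Frs2, Shc1, Ptpn11, Grb2 and Gab1. They were taken by symbol, as a fixed list of 10 genes of 55401 in the count table, and all 10 were found and had counts high enough to be tested. Their RNA was measured in the livers of NOD scid gamma (NSG) mice, an immunodeficient strain, each of which carried a subcutaneous xenograft of a human colorectal cancer cell line. Hosts of Colo201, given in the series as a line with high FGF19, supplied 4 libraries (2L, 2R, 4L and 4R). Hosts of HCT116, given as a line with low FGF19, supplied the other 4 (1L, 1R, 3L and 3R). In each line 2 libraries were labelled male (2L and 2R, and 1L and 1R) and 2 labelled female (4L and 4R, and 3L and 3R).

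All hosts bore a tumour, so no tumour-free liver stood beside them, and neither line was given with FGF19 raised or removed. FGF19 therefore cannot be told apart from any other difference between the tumours. The labels give no age, nor whether 2 libraries of the same title number (L and R) came from separate animals, so p-values measure the spread between libraries. The 4 pairs of libraries with the same number differed least, with a chi-square per gene of 15.6 to 31.6, against 39.9 or more in the other 24 pairs. These 4 pairs also share line and sex label, so the number cannot be told apart from the combination of line and label. Pairs that shared only the label had values of 39.9 to 56.0, and pairs that shared only the line 68.3 to 118. The sex labels ran opposite to the sex chromosomes in all 8 libraries: Xist, the RNA of the inactive X, reached 253 to 366 CPM (counts relative to the scaled library total) under the label male, but only 0.276 to 0.805 CPM under the label female. The labels are used below only as labels. The libraries held 61347603 to 65457482 estimated counts each. Alb, the main secreted protein of hepatocytes, took 7.51 to 12.0% of them, and a gene at 0 could still have been present at up to 0.183 to 0.196 CPM (3 fragments of 4 counts, counting error only). In bulk liver, fewer cells of a type and less RNA per cell cannot be told apart.

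FGF receptors are tyrosine kinases of the cell membrane. Fgfr4 is the receptor of hepatocytes for FGF19 of humans and its mouse counterpart FGF15, hormones of the ileum that reach the liver after a meal, and it needs Klb (beta-Klotho) to bind them. The activated receptor phosphorylates the docking protein FRS2, which recruits GRB2 and the phosphatase SHP2 (the product of Ptpn11). GRB2 then leads to RAS and ERK, and to PI3K through GAB1. In hepatocytes this signal lowers Cyp7a1 and Cyp8b1, which encode enzymes of bile acid synthesis.

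The bases in front of the start sites are shown for the pair of receptors that differed between the lines, Fgfr2 and Fgfr3, and for the receptor of FGF19 and its co-receptor, Fgfr4 and Klb, which did not pass. They are RefSeq sequences of GRCm38.p6, each the 250 bases before the RefSeq start, 5′ to 3′ on the strand of the gene. The gene records of GENCODE vM21, which span all transcripts of a gene, have their outer starts elsewhere. Those of Fgfr3 (33721674), Fgfr4 (55152640) and Klb (65348314) fall inside the windows. For Fgfr2, on the minus strand, the record reaches to 133123350, so its window lies within its GENCODE span. The starts of single GENCODE transcripts were not compared, so the outer edge of the Fgfr2 record is not given as its start. Capitals mark the GC box, GGGCGG or its reverse complement CCGCCC. For Fgfr3, which has 2 annotated starts, the first is shown. They lie at chr7:130266809-130267058 on the minus strand (Fgfr2), chr5:33721474-33721723 on the plus strand (Fgfr3), chr13:55152568-55152817 on the plus strand (Fgfr4) and chr5:65348161-65348410 on the plus strand (Klb).
Fgfr2: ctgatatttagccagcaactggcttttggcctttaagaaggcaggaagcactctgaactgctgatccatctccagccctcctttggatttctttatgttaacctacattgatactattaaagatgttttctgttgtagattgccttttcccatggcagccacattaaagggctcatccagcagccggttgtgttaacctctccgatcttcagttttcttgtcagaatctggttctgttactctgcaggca
Fgfr3: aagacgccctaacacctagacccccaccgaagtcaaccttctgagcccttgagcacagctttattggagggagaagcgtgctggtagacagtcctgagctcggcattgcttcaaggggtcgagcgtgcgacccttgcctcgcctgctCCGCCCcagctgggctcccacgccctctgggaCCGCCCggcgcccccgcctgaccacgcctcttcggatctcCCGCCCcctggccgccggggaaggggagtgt
Fgfr4: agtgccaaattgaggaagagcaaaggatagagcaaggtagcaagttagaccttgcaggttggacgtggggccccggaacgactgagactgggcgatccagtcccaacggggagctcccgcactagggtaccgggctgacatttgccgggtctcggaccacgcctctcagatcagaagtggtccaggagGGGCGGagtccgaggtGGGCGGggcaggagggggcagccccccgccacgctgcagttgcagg
Klb: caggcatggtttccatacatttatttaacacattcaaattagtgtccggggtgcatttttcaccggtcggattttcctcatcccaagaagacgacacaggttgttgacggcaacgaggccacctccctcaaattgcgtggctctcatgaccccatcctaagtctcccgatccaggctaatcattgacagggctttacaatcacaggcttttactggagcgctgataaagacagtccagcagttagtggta

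The Fgfr2 window had 44.0% G and C and 2 CpG pairs, and no GC box. The Fgfr3 window had 66.8% G and C, 19 CpG pairs and 3 GC boxes, and the Fgfr4 window 64.0%, 15 CpG pairs and 2 GC boxes. The Klb window had 48.0%, 9 CpG pairs and no GC box. Over 32851 windows of the same length, taken from 27025 genes, the medians were 52.4% G and C and 6 CpG pairs, and 32.7% of windows held a GC box on either strand. Of these windows, 18.8% had fewer CpG pairs than that of Fgfr2 and 80.3% fewer than that of Fgfr3. The other motifs searched, on both strands and each counted apart from the rest, were the E-box CACGTG (6.02% of all windows), the ETS core CCGGAAGT (2.88%), the cyclic AMP response element TGACGTCA (1.55%) and the nuclear receptor half-site AGGTCA (14.0%). None of these was in the 4 windows shown. Among the other members, Frs2 held 1 ETS core and Ptpn11 held 1 cyclic AMP response element. Windows were found for 9 of the 10 members; Fgfr1 had no entry.

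Set on one scale per length, as the authors' FPKM (fragments per kilobase, scaled to library size), Fgfr4 was the most abundant of the 10 genes and Fgfr1 the least. Fgfr4 averaged 16.4 ± 1.0 FPKM over all 8 libraries (SD). Grb2 followed at 13.2 ± 2.89, Shc1 at 9.07 ± 0.810, Ptpn11 at 8.09 ± 0.966 and Klb at 7.01 ± 1.23 FPKM. Fgfr2 stood at 4.97 ± 1.37 FPKM, Gab1 at 2.84 ± 0.607, Frs2 at 1.82 ± 0.306, Fgfr3 at 1.75 ± 0.568 and Fgfr1 at 0.266 ± 0.0767 FPKM. On this scale, the order between neighbours was the same in all 8 libraries only for Klb above Fgfr2, Gab1 above Frs2 and Fgfr3 above Fgfr1. Shc1 exceeded Ptpn11 in 5 of 8 libraries, by 0.977 ± 1.65 FPKM (mean and SD of the difference), Ptpn11 exceeded Klb in 6 of 8, by 1.08 ± 1.85 FPKM, and Frs2 exceeded Fgfr3 in 5 of 8, by 0.0675 ± 0.420 FPKM. None of these 3 pairs was ordered beyond its spread. The deposited FPKM matched the length of all exons of a gene joined together, in the GENCODE vM21 annotation, in 98.9% of 6707 genes (within 0.02 on the log2 scale). That joined length is 2.33 times the longest transcript for Fgfr2, 1.29 times for Klb and 1.07 times for Fgfr4. The scale therefore places Fgfr2 low relative to Klb and Fgfr4, and the order of Klb above Fgfr2 depends on the length used. It also places Shc1 (1.74 times) low relative to Grb2 (1.08 times), and Frs2 (1.36 times) low relative to Gab1 (1.02 times).

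Of the 4 receptors, Fgfr2 was higher and Fgfr3 lower in livers of Colo201 hosts than in livers of HCT116 hosts, whereas Fgfr1 and Fgfr4 did not pass the test. These 2 were the only members of the 10 that passed, 1 in each direction, at an adjusted p under 0.05. Over all 17669 tested genes 4.78% passed, 2.48% as higher and 2.3% as lower. The tests were edgeR's quasi-likelihood test with sex label as a covariate and Benjamini-Hochberg adjustment over all tested genes, and fold changes are Colo201 over HCT116 hosts throughout. In levels, 5 of the 10 members had no overlap between the lines (Fgfr2, Fgfr3, Frs2, Shc1 and Ptpn11), against 12.3% of all tested genes. Of these 5, Fgfr2 and Shc1 were above (6.27% of all tested genes) and the other 3 below (6.04%).

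**Figure D1:**
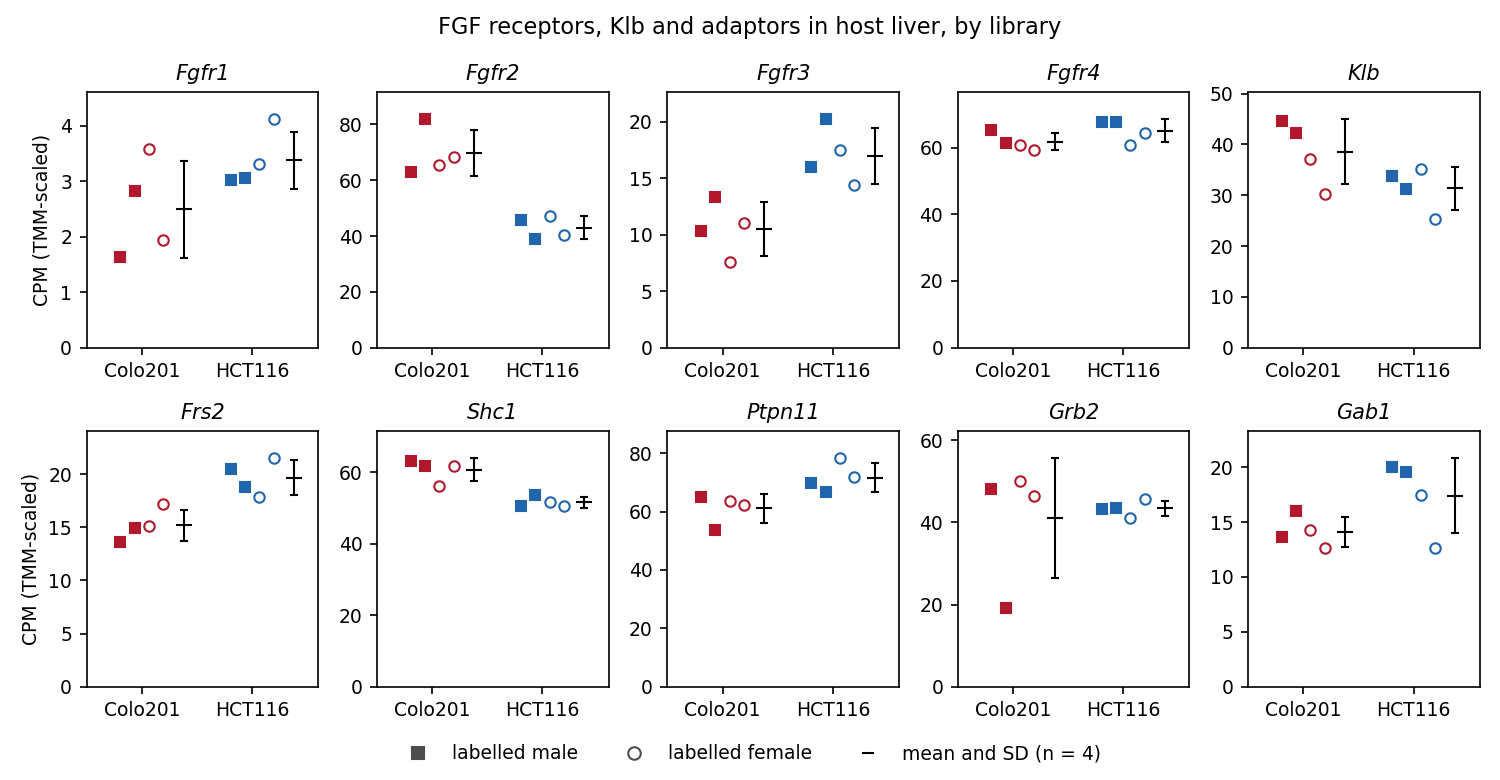
Scaled CPM of the 10 members in each liver library, with Colo201 hosts (red) left of HCT116 hosts (blue), filled squares for libraries labelled male, open circles for those labelled female, and bars for the mean and SD of 4 libraries; each vertical axis starts at 0. Fgfr2 lies at 63.1 to 81.8 CPM in Colo201 hosts, above all HCT116 hosts, Fgfr3 at 7.54 to 13.3 CPM, below all HCT116 hosts, and Grb2 is at 19.2 CPM in 1 Colo201 library.

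Fgfr2 (ENSMUSG00000030849) encodes a receptor whose splice forms serve epithelium and mesenchyme. It had 63.1, 81.8, 65.5 and 68.4 CPM in Colo201 2L, 2R, 4L and 4R, against 45.9, 38.8, 47.1 and 40.2 CPM in HCT116 1L, 1R, 3L and 3R. The lowest Colo201 library was above the highest HCT116 library, and 2R was the highest of all. The means were 69.7 ± 8.36 CPM in Colo201 hosts and 43.0 ± 4.13 CPM in HCT116 hosts (SD, n = 4 libraries each). This is a log2 fold change of 0.70 (SE 0.114, 95% interval 0.44 to 0.96), or 1.62-fold, with an edgeR adjusted p of 0.0187. The adjusted p was 0.0551 without HCT116 1L and 0.0608 without HCT116 1R, so the call rests on both of these libraries, and it was 0.118 with the libraries of a title number summed.

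In GENCODE vM21, Fgfr2 spans chr7:130162451-133123350 on the minus strand and overlaps 69 other genes by its span. Of its 10328 exon bases, however, 314 (3.04%) are shared with another gene, Ctbp2 on the same strand. The counts are per gene, so splice forms of Fgfr2 could not be separated.

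Fgfr3 (ENSMUSG00000054252), known as a regulator of bone growth, had 10.3, 13.3, 7.54 and 11.0 CPM in Colo201 2L, 2R, 4L and 4R. In HCT116 1L, 1R, 3L and 3R it had 16, 20.2, 17.5 and 14.4 CPM. Every Colo201 library was below every HCT116 library, with a gap between 13.3 CPM in Colo201 2R and 14.4 CPM in HCT116 3R. The means were 10.5 ± 2.37 CPM in Colo201 hosts and 17.0 ± 2.48 CPM in HCT116 hosts (SD, n = 4 each). The difference was -0.70 on the log2 scale (SE 0.160, 95% interval -1.07 to -0.34), with an edgeR adjusted p of 0.0459. The call was lost when any 1 of the 8 libraries was left out, with adjusted p from 0.0541 to 0.141 and log2 fold changes from -0.80 to -0.59. It was also lost in 5 of 12 other ways of processing: without a filter on low counts (0.0563), without the covariate (0.0946), with libraries of a title number summed (0.127) and in limma fits of log2 FPKM with 1 (0.0781) or 0.1 (0.0775) added. In GENCODE vM21 the gene lies at chr5:33721674-33737068 on the plus strand, and 998 of its exon bases (13.9%) are shared with G630022F23Rik on the opposite strand. The strand setting of the authors' counting is not given in the sources used here. G630022F23Rik itself was counted at 0.123 to 0.437 CPM in Colo201 hosts and at 0.221 to 0.503 CPM in HCT116 hosts, relative to unscaled totals. The effect of this overlap on the Fgfr3 counts was not tested.

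Fgfr4 (ENSMUSG00000005320) had 65.4, 61.5, 60.9 and 59.3 CPM in Colo201 2L, 2R, 4L and 4R, against 67.8, 67.8, 60.7 and 64.4 CPM in HCT116 1L, 1R, 3L and 3R. The lines overlapped, and the log2 fold change was -0.08 (SE 0.072, edgeR adjusted p = 0.593). Its 95% interval, -0.24 to 0.09, was the narrowest of the 10 members. Fgfr4 lies at chr13:55152640-55168759 on the plus strand and shares no exon base with another gene.

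Fgfr1 (ENSMUSG00000031565), a receptor of many mesenchymal cells and the partner of Klb in fat, was low throughout. It had 1.63, 2.82, 3.57 and 1.94 CPM in Colo201 2L, 2R, 4L and 4R, against 3.02, 3.05, 3.30 and 4.11 CPM in HCT116 1L, 1R, 3L and 3R. The lines overlapped through Colo201 4L, and the log2 fold change was -0.44 (SE 0.254, 95% interval -1.02 to 0.14, edgeR adjusted p = 0.365).

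Klb (ENSMUSG00000029195), at chr5:65348314-65384007 on the plus strand, had 44.7, 42.2, 37.1 and 30.3 CPM in Colo201 2L, 2R, 4L and 4R. In HCT116 1L, 1R, 3L and 3R it had 33.7, 31.2, 35.1 and 25.4 CPM. The lines overlapped, since Colo201 4R was below 3 of the HCT116 libraries. The means were 38.6 ± 6.34 CPM in Colo201 hosts and 31.4 ± 4.25 CPM in HCT116 hosts (SD, n = 4 each). The log2 fold change of 0.29 (SE 0.128) did not pass, with an edgeR adjusted p of 0.233, and its 95% interval ran from -0.002 to 0.58.

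**Figure D2:**
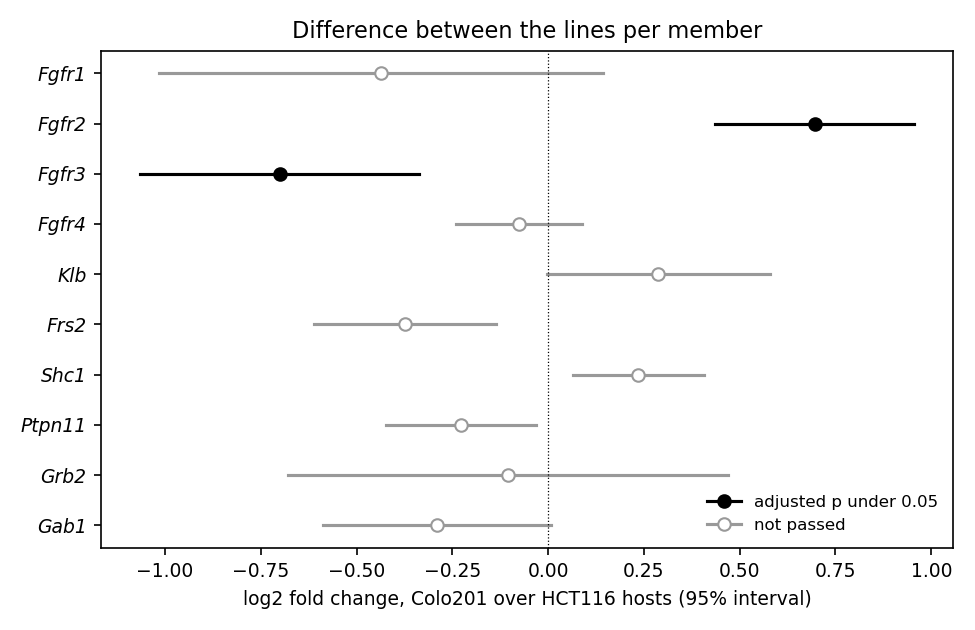
Log2 fold change of each member, Colo201 over HCT116 hosts, as a point with its 95% interval, in black where the edgeR adjusted p was under 0.05 and in grey where it was not. Fgfr2 at 0.70 and Fgfr3 at -0.70 are the only 2 in black, and the interval of Fgfr4 is the narrowest.

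The makeup of the receptor pool was described by the share of each receptor in the summed FPKM of the 4 receptors in a library. On this scale Fgfr4 held most of it in every library, with 70.6, 63.3, 69.0 and 66.8% in Colo201 2L, 2R, 4L and 4R, against 73.4, 73.6, 70.1 and 74.3% in the HCT116 libraries 1L, 1R, 3L and 3R. The means were 67.4 ± 3.14% in Colo201 hosts and 72.8 ± 1.87% in HCT116 hosts (SD, n = 4 each). The lines overlapped by 1 library, Colo201 2L, which was above HCT116 3L. The exact permutation p was 0.0571, two-sided (0.0714 adjusted over 5 values).

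The share of Fgfr2 was 23.3, 28.9, 25.4 and 26.4% in Colo201 2L, 2R, 4L and 4R, against 17.0, 14.4, 18.6 and 15.9% in the HCT116 libraries 1L, 1R, 3L and 3R. Each Colo201 library was above each HCT116 library, with means of 26.0 ± 2.32% in Colo201 hosts and 16.5 ± 1.79% in HCT116 hosts (SD, n = 4 each). The exact permutation p was 0.0286, the smallest that 70 regroupings of 4 against 4 allow, and 0.0714 after adjustment over the 5 values. No share could therefore pass after adjustment unless at least 3 of the 5 values reached that smallest p.

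For Fgfr3 the shares were 5.47, 6.75, 4.17 and 6.04% in Colo201 2L, 2R, 4L and 4R, against 8.48, 10.8, 9.94 and 8.15% in the HCT116 libraries 1L, 1R, 3L and 3R. The lines did not overlap, and the exact permutation p was again 0.0286 (0.0714 adjusted). Fgfr1 held 0.954 ± 0.361% in Colo201 hosts and 1.34 ± 0.259% in HCT116 hosts (SD, n = 4 each), with an exact permutation p of 0.143. Shares in a pool of 4 sum to a whole, so they are not independent of each other.

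Measured with the longest transcript as the length of each gene, a setting added after the data were seen, the share of Fgfr2 was 42.0% in Colo201 hosts and 28.5% in HCT116 hosts, and that of Fgfr4 50.1% in Colo201 hosts and 57.9% in HCT116 hosts. The exact permutation p adjusted over the 5 values was then 0.0476 for Fgfr2, Fgfr3 and Fgfr4. As shares of summed CPM, which are not per length, Fgfr2 held 48.1% in Colo201 hosts and 33.4% in HCT116 hosts, and Fgfr4 42.9% in Colo201 hosts and 50.7% in HCT116 hosts, so that in Colo201 hosts the order of the pair turned. The ratio of Klb to Fgfr4, as log2 of their FPKM, was -0.912, -0.902, -1.08 and -1.33 in Colo201 2L, 2R, 4L and 4R, against -1.37, -1.48, -1.15 and -1.70 in the HCT116 libraries 1L, 1R, 3L and 3R. The means were -1.05 ± 0.199 in Colo201 hosts and -1.43 ± 0.228 in HCT116 hosts (SD, n = 4 each), the lines overlapped, and the exact permutation p was 0.0571 (0.0714 adjusted).

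**Figure D3:**
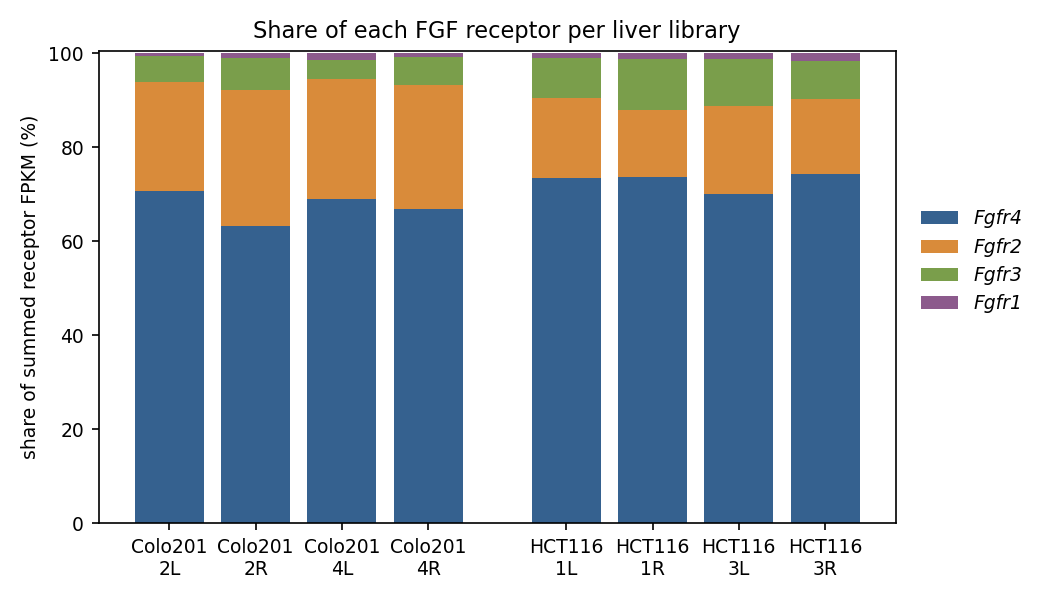
Share of each FGF receptor in the summed FPKM of the 4 receptors (vertical axis, percent) in each liver library, with the 4 libraries of Colo201 hosts left of the 4 libraries of HCT116 hosts. The orange segment of Fgfr2 is at 23.3 to 28.9% in Colo201 hosts and at 14.4 to 18.6% in HCT116 hosts, while Fgfr4 (blue) takes 63.3 to 70.6% in Colo201 hosts and 70.1 to 74.3% in HCT116 hosts.

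None of the 5 adaptors passed the test between the lines, although 3 of them did not overlap. Frs2 (ENSMUSG00000020170), the docking protein that FGF receptors phosphorylate, had 13.6, 14.9, 15.1 and 17.2 CPM in Colo201 2L, 2R, 4L and 4R. In HCT116 1L, 1R, 3L and 3R it had 20.5, 18.8, 17.9 and 21.5 CPM. All Colo201 libraries were below all HCT116 libraries, and the log2 fold change was -0.37 (SE 0.104, 95% interval -0.61 to -0.14) with an edgeR adjusted p of 0.0816. DESeq2 gave an adjusted p of 0.0246 for it, the only alternative of 21 in which Frs2 passed.

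Shc1 (ENSMUSG00000042626) encodes an adaptor that many receptor tyrosine kinases use to reach GRB2. It had 63.3, 61.7, 56.2 and 61.8 CPM in Colo201 2L, 2R, 4L and 4R, against 50.5, 53.6, 51.7 and 50.5 CPM in HCT116 1L, 1R, 3L and 3R. Colo201 hosts were above HCT116 hosts without overlap, by a log2 fold change of 0.24 (SE 0.075, edgeR adjusted p = 0.115).

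Ptpn11 (ENSMUSG00000043733), which encodes the phosphatase SHP2, had 64.9, 53.8, 63.5 and 62.3 CPM in Colo201 2L, 2R, 4L and 4R. In HCT116 1L, 1R, 3L and 3R it had 69.8, 66.7, 78.2 and 71.7 CPM. Colo201 hosts were below HCT116 hosts without overlap, by a log2 fold change of -0.23 (SE 0.086, edgeR adjusted p = 0.17).

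Grb2 (ENSMUSG00000059923), the adaptor that brings the RAS activator SOS to the membrane, had 48.1, 19.2, 50.1 and 46.4 CPM in Colo201 2L, 2R, 4L and 4R, against 43.3, 43.4, 41.2 and 45.6 CPM in HCT116 1L, 1R, 3L and 3R. Colo201 2R was below all the other libraries, and the other 3 Colo201 libraries were above all 4 HCT116 libraries. The log2 fold change was -0.11 (SE 0.252, edgeR adjusted p = 0.851) with all libraries and 0.15 (adjusted p = 0.405) without Colo201 2R. Among 7788 genes with at least 10 CPM on average, 155 (1.99%) had 1 library at no more than 0.5 times the next lowest, and in 27 of them that library was 2R.

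Gab1 (ENSMUSG00000031714), a docking protein that links receptors to PI3K, had 13.6, 16, 14.3 and 12.6 CPM in Colo201 2L, 2R, 4L and 4R, against 20, 19.6, 17.5 and 12.6 CPM in HCT116 1L, 1R, 3L and 3R. The lines overlapped through HCT116 3R, and the log2 fold change was -0.29 (SE 0.131, edgeR adjusted p = 0.24). With all libraries, the 5 adaptors had a median log2 fold change of -0.23, beside 0.00215 over all tested genes, with Shc1 alone above 0. Without Colo201 2R, Grb2 was above 0 as well (0.15).

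No member passed between the sex labels. Between labelled male and labelled female libraries the 10 members had log2 fold changes from -0.30 to 0.27 and a lowest edgeR adjusted p of 0.33, while 4.02% of all tested genes passed. At an unadjusted p under 0.05, 0 of the 10 were called, against 18.2% of all tested genes, and DESeq2 also called 0 of them, against 8.97%. The interaction of line and label called 0 of 10 members, against 0.0283% of all tested genes. At an unadjusted p under 0.05 it called 0, against 4.1%, and with DESeq2 0, against 0.332%. Within a label, where 2 libraries stand against 2, no member passed (0.232% of all tested genes in libraries labelled male and 0.492% in those labelled female). An unadjusted p under 0.05 was reached by 4 of 10 members in libraries labelled male (Fgfr2, Fgfr3, Klb and Frs2), against 13.1% of all tested genes. In libraries labelled female it was reached by 2 of 10 (Fgfr2 and Fgfr3), against 14.1%. DESeq2 called Fgfr2 within both labels, with an adjusted p of 0.00405 in libraries labelled male (4.14% of all genes with an adjusted p) and 0.0414 in those labelled female (4.44%). The log2 fold change of Fgfr2 was 0.78 in libraries labelled male and 0.62 in those labelled female, and that of Fgfr3 was -0.61 in libraries labelled male and -0.79 in those labelled female. For Klb it was 0.42 in libraries labelled male and 0.16 in those labelled female. The sign was the same within both labels for 9 of the 10 members. A label also marks a title number within each line, so the label and the number cannot be told apart.

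The search for similar patterns covered 11496 tested genes with at least 1 CPM on average. The members and provisional identifiers, such as Gm or Rik names, were left out of it. From these, the genes whose log2 CPM followed each receptor gene most closely over the 8 libraries were taken. For Fgfr2 they were Dpt, which encodes the matrix protein dermatopontin (Pearson r = 0.993), Slc25a48, a carrier of mitochondria (0.991), and Vegfc, a growth factor of lymphatic vessels (0.983). For Fgfr3 they were Chd9, a chromatin remodeller (0.987), Smg1, a kinase of nonsense-mediated decay (0.980), and Nfkbiz, a regulator of NF-kB targets (0.966). For Fgfr4 they were Tent5c, a poly(A) polymerase (0.952), Lcat, the enzyme that esterifies plasma cholesterol (0.945), and Cd302, a lectin receptor (0.945). For Klb they were Brd7, a bromodomain protein (0.969), Prelp, a matrix proteoglycan (0.965), and Tmem159 (0.963). For the low Fgfr1 they were Scaf11 (0.937), Ing3 (0.937) and Utp4 (0.936). With any 1 library left out, r stayed at or above 0.989 for Dpt with Fgfr2, and the lowest value for any of the 15 genes was 0.873, for Utp4 with Fgfr1. These are the highest of many values over libraries of 2 lines, and those of Fgfr2 and Fgfr3 include the step between the lines.

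The other genes of the pathway are given by list, and 4.78% of all tested genes passed between the lines. Of 18 FGF ligands 5 had counts high enough to be tested and 0 passed. The ligand of the ileum, Fgf15, was at 0 in all 8 libraries. Fgf1, a ligand of all FGF receptors, had the smallest p of the ligands, with a log2 fold change of -0.38 (edgeR adjusted p = 0.223). Fgf21, the hepatic hormone that acts through Klb, stood at 0.787 to 4.05 CPM in Colo201 hosts and at 0.577 to 2.84 CPM in HCT116 hosts. Of 8 other co-receptors and decoys 5 were tested and 0 passed; Flrt3, a membrane partner of FGF receptors, was at 0.25 to 0.623 CPM in Colo201 hosts and at 0 to 0.10 CPM in HCT116 hosts (adjusted p = 0.144). Of 20 genes of heparan sulfate, the sugar chain on which FGFs bind their receptors, 1 rose, the syndecan Sdc1 (log2 fold change 0.36, adjusted p = 0.0383). Its libraries overlapped between the lines, and it passed in only 1 of the 8 fits with 1 library left out, that without HCT116 3R (adjusted p from 0.0478 to 0.118 over the 8).

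Further down the cascade, 0 of 15 tested paralogous and further adaptors passed, and Plcg1, the phospholipase bound directly by FGF receptors, had the smallest p (log2 fold change -0.45, edgeR adjusted p = 0.192). In the RAS to ERK core of 17 genes 2 rose and 1 fell. Mapk3, which encodes ERK1, was higher by 0.49 on the log2 scale (adjusted p = 0.0273), and Rps6ka1, which encodes a kinase that ERK activates, by 0.54 (adjusted p = 0.0313). Braf, a kinase upstream of ERK, had a value of -0.46 (adjusted p = 0.0491). With 1 library left out, Mapk3 and Rps6ka1 passed only without Colo201 4R, with adjusted p up to 0.0961 for Mapk3 and 0.106 for Rps6ka1, and Braf passed in none of the 8 fits (0.0577 to 0.151). None of 8 genes of the PI3K branch and none of 6 genes of receptor ubiquitination and dephosphorylation passed, with the smallest p for Pik3cb (-0.36, adjusted p = 0.0667) and Ubash3b (0.85, adjusted p = 0.086). Of 15 other receptor tyrosine kinases 1 fell, Mertk, a receptor for the clearance of dying cells (-0.72, adjusted p = 0.0301), which was lost without Colo201 2L or 4L or HCT116 1L, 1R or 3L (adjusted p up to 0.0902). The medians of these lists lay between -0.38 for the ligands and 0.61 for the co-receptors and decoys, beside 0.00215 for all tested genes. Both of these outer lists had only 5 tested genes, so each median is the value of a single gene. Both also held genes below 1 CPM in every library.

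Of 10 genes known to answer the signal of Klb and Fgfr4, 2 were higher and 2 lower in Colo201 hosts. Cyp7a1 was at 0.297 to 3.61 CPM in Colo201 hosts and at 181 to 223 CPM in HCT116 hosts (edgeR adjusted p = 0.00381). Cyp8b1 was at 19.3 to 58.6 CPM in Colo201 hosts and at 71.1 to 252 CPM in HCT116 hosts (adjusted p = 0.00469). Spry4, an inhibitor of the cascade that ERK induces, was at 22.3 to 34.4 CPM in Colo201 hosts and at 10.1 to 16.1 CPM in HCT116 hosts (adjusted p = 0.0049), and Etv5, a transcription factor of the same kind of response, was higher by 1.09 on the log2 scale (adjusted p = 0.0325). Cyp7a1, Cyp8b1 and Spry4 passed in all 8 fits with 1 library left out, and Etv5 only in that without Colo201 4R (adjusted p up to 0.0961). Beside them, the 95% interval of the difference in Fgfr4, the receptor of this signal, was -0.24 to 0.09 on the log2 scale.

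**Figure D4:**
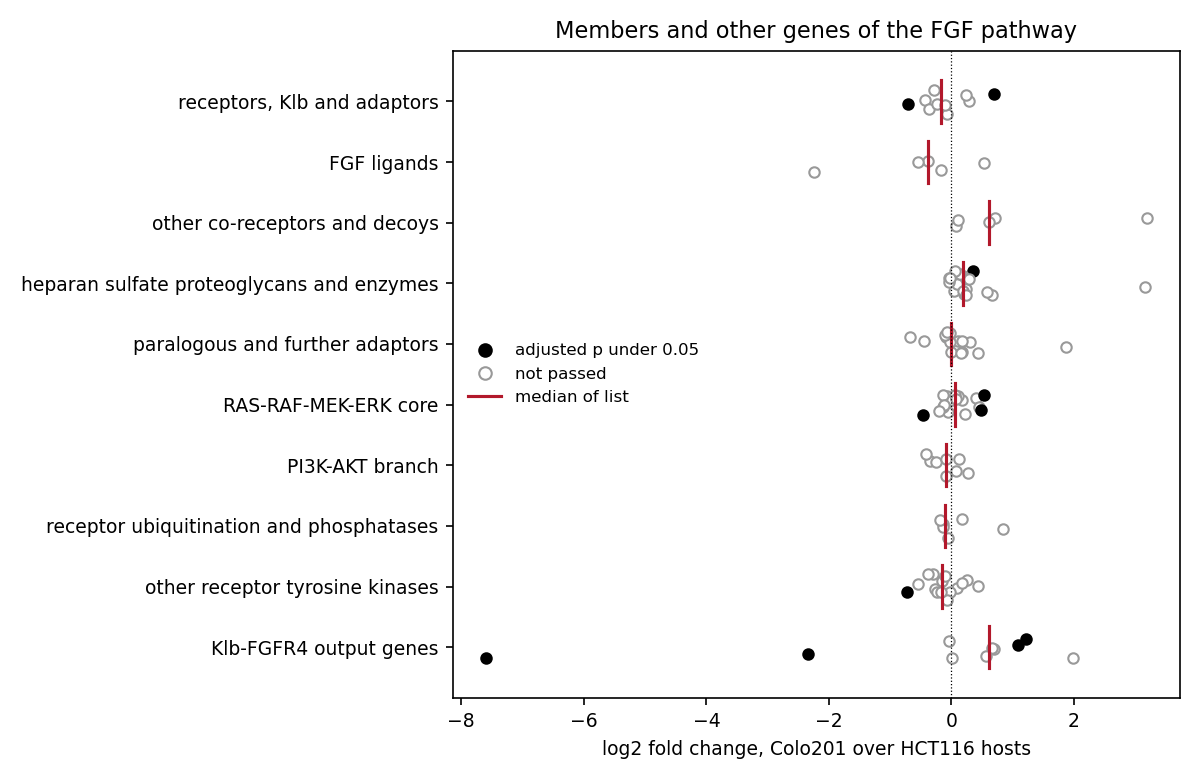
Log2 fold change, Colo201 over HCT116 hosts, of each tested gene in the list of receptors, Klb and adaptors and in 9 further lists of the pathway; black points had an edgeR adjusted p under 0.05 and red lines mark list medians. Within the list of the 10 members the values stay between -0.70 and 0.70, and the output genes reach from -7.59 to beyond 1.22.

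Markers of liver cell types are given beside these values because receptors differ between cell types. The summed CPM of 10 cholangiocyte markers was 43.1 to 81.5 in Colo201 hosts and 43.4 to 53.0 in HCT116 hosts. The highest sum was that of Colo201 4R, with 25.9 CPM of Krt19. Sums of 10 stellate and fibroblast markers were 262 to 271 CPM in Colo201 hosts and 194 to 280 CPM in HCT116 hosts, and 1 of the 10 genes passed, Reln (log2 fold change 0.89, edgeR adjusted p = 0.0184). Like Fgfr2, 3 of these 10 genes were above in Colo201 hosts without overlap: Reln, Des at 3.66 to 4.84 CPM in Colo201 hosts and 2.44 to 3.51 CPM in HCT116 hosts, and Acta2 at 1.4 to 3.39 CPM in Colo201 hosts and 0.194 to 1.11 CPM in HCT116 hosts. Dcn, a large part of the sum, averaged 94.6 ± 9.45 CPM in Colo201 hosts and 123 ± 18.4 CPM in HCT116 hosts (SD, n = 4 each), with overlap. Sums of 8 sinusoidal endothelial markers were 163 to 290 CPM in Colo201 hosts and 185 to 307 CPM in HCT116 hosts, and those of 8 Kupffer cell markers 171 to 481 CPM in Colo201 hosts and 281 to 431 CPM in HCT116 hosts. In these lists and among the 9 tested cholangiocyte markers 0 genes other than Reln passed.

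Of the hepatocyte markers 1 of 10 passed, Apoa1 (log2 fold change 0.47, edgeR adjusted p = 0.0167). Of the pericentral markers, which mark the hepatocytes around the central vein, 1 rose (Oat), 3 fell (Cyp2e1, Glul and Slc1a2) and 6 did not pass. Their sum was 7780 to 9650 CPM in Colo201 hosts and 11400 to 13600 CPM in HCT116 hosts, without overlap. Most of that sum was Cyp2e1, at 5550 to 7170 CPM in Colo201 hosts and 8730 to 10200 CPM in HCT116 hosts. Of the periportal markers 3 rose (Cdh1, Gls2 and Hal) and 1 fell (Pck1). Their sum, most of it Alb, was 96500 to 137000 CPM in Colo201 hosts and 86000 to 124000 CPM in HCT116 hosts, with overlap. The adipocyte markers summed to 4.1 to 9.58 CPM in Colo201 hosts and 11.2 to 16.1 CPM in HCT116 hosts, with Lep at 0 in all libraries and Adipoq, Plin1 and Retn at no more than 0.135 CPM in any. Pparg, which hepatocytes also express, was at 2.03 to 5.63 CPM in Colo201 hosts and at 9.22 to 13.1 CPM in HCT116 hosts (edgeR adjusted p = 0.00561). Cidec was at 1.72 to 4.49 CPM in Colo201 hosts and at 1.80 to 4.21 CPM in HCT116 hosts, with overlap. The separation of the adipocyte sums therefore lay in Pparg. With 1 library left out, Cdh1, Gls2, Hal, Cyp2e1 and Pparg passed in all 8 fits, whereas Apoa1, Reln, Oat, Slc1a2, Glul and Pck1 each lost the call in 2 to 7 of them. The part of zonal markers, adipocyte markers or any cell type in the differences of Fgfr2 and Fgfr3 was not tested.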

How the data were processed

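Polyadenylated RNA of mouse liver was sequenced from 8 stranded TruSeq mRNA libraries, per the labels' protocols. Per the submitters' processing notes, the tools were HISAT2 and StringTie and the build was GRCm38 (mm10). Tool versions, the gene annotation used and how strand was set were not given in the sources used here. The authors deposited estimated counts per gene as whole numbers, and 43.9 to 45.0% of values from 1 to 16 were multiples of 4, where an even spread would give 25%. The authors also deposited FPKM, which held the same information as the counts (median SD of the log2 ratio within a gene 0.00038). Of 55401 gene identifiers, 55141 matched a symbol in the gene name table, and the 260 others held 0.0216 to 0.0343% of counts. No library pair agreed within sampling noise (chi-square per gene at least 15.6 over all 28 pairs).

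The counts, already whole, were given TMM factors, and filterByExpr left 17669 genes. Tests were edgeR's quasi-likelihood tests (version 4.0.16, R 4.3.3; glmQLFTest), two-sided, adjusted by Benjamini-Hochberg over all tested genes with a threshold of 0.05. Sex label entered the comparison between lines as a covariate. A fit with a mean for each combination of line and label gave the interaction and the values within a label. CPM use the TMM-scaled totals. Standard errors and 95% intervals were derived from F statistics. Receptor shares were tested by exact permutation over 70 regroupings. The fits were also tested on simulated data.

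Alternatives were other scalings and filters, DESeq2 1.42.0, limma 3.58.1 (voom, and log2 FPKM with 1 or 0.1 added), the 20 most abundant genes left out, counts divided by 4, no covariate, libraries summed by title number, a threshold of 0.01 and each library left out in turn. One more, the longest transcript as length, was added after the data were seen. The members, the gene lists and the alternatives were chosen with earlier results of these data known. Named were all members; of every other list each gene that passed between the lines or else the one with the smallest p; the 3 closest patterns for each receptor gene and Klb; and Cyp7a1, Cyp8b1 and Spry4. Xist, Fgf15, Fgf21, Krt19, Des, Acta2, Dcn, Cidec and the adipocyte genes at or near 0 are named outside this rule, chosen after their values were seen.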

Additional observations from a re-analysis of the deposited data

Results flagged for a closer look

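Of 30 groups of 4 libraries examined for 1 library far from the other 3 (CPM of the 10 members, and the 5 receptor values, in each line), 1 held such a library; chance gives about 1 in 20. It was Grb2 in Colo201 2R, at 19.2 CPM, where the other Colo201 libraries were at 46.4 to 50.1 CPM and the HCT116 libraries at 41.2 to 45.6 CPM. The gap to the nearest library was 0.88 of the range of the Colo201 libraries. The reason for this low value was not tested.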

How the results depend on the processing

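Among the 10 members, the sign of the difference between the lines was the same under all 21 alternatives except for Grb2, whose log2 fold change ran from -0.34 to 0.15 with 1 library left out, above 0 without Colo201 2R. Of 12 other ways of processing, Fgfr2 passed in 11, all but the sums by title number, and in 6 of 8 fits with 1 library left out. Fgfr3 passed in 7 of 12 and in 0 of 8, and neither passed at a threshold of 0.01. Values beside 0 that changed sign with 1 library left out were Fgfr2 between sex labels (-0.061 to 0.097), the interaction of Fgfr2 (-0.338 to 0.043), Fgfr3 (-0.469 to 0.058) and Fgfr4 (-0.005 to 0.081), and Klb within libraries labelled female (-0.057 to 0.407). Over all genes, the 845 calls between lines became 1993 with DESeq2, 155 without the covariate, 92 at a threshold of 0.01, 3 with libraries summed by title number (which leaves 1 residual degree of freedom), and 175 to 550 with 1 library left out, fewest without HCT116 3L. The 710 calls between sex labels became 1585 with DESeq2, 141 summed, and 327 to 630 with 1 left out. The 5 interaction calls became 53 with DESeq2, 2 with either FPKM fit and 0 to 15 with 1 left out. The 41 calls within libraries labelled male became 589 with DESeq2, 26 and 24 with FPKM plus 1 or 0.1, and 2 to 53 with 1 left out. The 87 within libraries labelled female became 754 with DESeq2, 142 with limma voom, and 19 to 79 with 1 left out. Differences in receptor shares (Colo201 minus HCT116, percentage points) reached an adjusted p of 0.0476 as shares of CPM (Fgfr2 14.7, Fgfr3 -6.00, Fgfr4 -7.79) and with the longest transcript as length (13.5, -5.16 and -7.73 for the same genes). With 1 library left out they ran from 8.56 to 10.4 for Fgfr2, from -4.14 to -3.25 for Fgfr3, from -6.46 to -4.04 for Fgfr4 and from -0.544 to -0.261 for Fgfr1. The adjusted p was 0.0476 without Colo201 2L for Fgfr2, Fgfr3 and Fgfr4 and without Colo201 4L for Fgfr1, Fgfr2 and Fgfr3. Averaged by title number, the smallest exact p that 2 against 2 allows is 0.333. No paired analysis was possible because the lines share no title number. Apart from the summing and the stricter threshold, the cause of these shifts was not tested. Fgfr1 had the lowest CPM of the members, 1.63 to 4.11.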
